A study of Homo sapiens with 12 samples.

Results

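Transcript levels of 36 protein kinases of the MAP kinase cascades were examined in A2780 cells, an established human ovarian carcinoma line. The kinases were chosen by name: 11 MAP kinases, 7 MAP kinase kinases (MAP2K), 13 MAP kinase kinase kinases (MAP3K) and 5 kinases one step further up (MAP4K). A member counted as measured when a platform carried a probe that its annotation assigns to that gene alone. By this rule 31 members were measured on AFFX, among 19775 genes, and 29 on ABI, among 17191 genes. Both platforms measured 28 of them, among 16185 shared genes, and 32 were measured on at least 1. MAPK14, MAP2K7, MAP4K2 and MAP4K3 were not analysed here. MAPK3, MAP2K2 and MAP3K12 were measured on AFFX only and MAP2K3 on ABI only.

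Treated cells had been exposed for 6 hours to 3 µM of a cell cycle inhibitor that the labels do not name, and control cells were left untreated. Both conditions were hybridised on AFFX (Affymetrix Human Genome U133 Plus arrays) and on ABI (Applied Biosystems Human Genome Survey arrays), with 3 arrays per condition and platform. RNA of 3 cultures, taken from attached cells only, was pooled per condition, so all arrays of a condition are technical aliquots of 1 pool. The p-values below therefore compare 2 pools against the spread between arrays and hold nothing about the spread between cultures.

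A MAP kinase cascade is a relay of kinases. A MAP3K, which receives signals from small GTPases, receptor adaptors or MAP4K proteins, phosphorylates a MAP2K, and the MAP2K phosphorylates a MAP kinase on a threonine and a tyrosine. The ERK branch is best known for growth factor signals, the JNK and p38 branches for stress and cytokines, and the ERK5 branch for both. Arrays measure the mRNA of these kinases and not their phosphorylation.

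AFFX signals are log2 values. ABI signals are linear, with no scale stated, and were turned to log2 for every change and test. In both, log2(Fold Change) is treated minus control. A gene was called when the adjusted p (limma, Benjamini-Hochberg over all probes) was under 0.05 and the change at least 1.5-fold. On AFFX the signals of a probe set had a median SD of 0.113 in treated and 0.0976 in control arrays, and on ABI, in log2, of 0.298 and 0.261. Precision was thus lower on ABI, where the median SE of the members' changes was 0.22 against 0.09 on AFFX. The median of the probes for leukocyte genes, which such cells should lack, was 4.68 on AFFX and -1.17 in log2 on ABI. It serves below as a level near background, and 26 members on each platform lay above it in at least 1 condition. As to the labelled cell type, 6 of 10 epithelial and ovarian carcinoma markers on AFFX and 6 of 9 on ABI lay below the median of all probes. Above percentile 75 lay 2 of 10 on AFFX and 0 of 9 on ABI. KRT8, at percentiles 64.1 on AFFX and 56.0 on ABI, and KRT18, at 60.8 and 56.3, lay above the median on both. EPCAM, CDH1, MSLN and WT1 lay below the median on both. PAX8 was at percentile 82.7 on AFFX and 38.6 on ABI, and KRT7 at 75.7 and 48.5. Of 11 fibroblast and endothelial markers, 4 on AFFX and 3 on ABI lay above percentile 75, led by COL3A1 at percentiles 99.4 and 96.4. Below the median of all probes lay 4 of these 11 on AFFX and 5 on ABI. CDH5 and KDR lay below the median on both platforms. The 18 AFFX probe sets for spiked hybridisation controls were higher in treated arrays by a median of 0.47 in log2, and ribosomal protein genes by 0.20 on AFFX and 0.60 on ABI. With arrays centred on ribosomal protein genes, 11 members were called lower on AFFX, 13 on ABI and 7 on both. This scaling moved the median change of all probes to -0.18 on AFFX and -0.48 on ABI, and the share of all genes called under it was not counted. The part of the hybridisation controls was not tested.

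Of the members measured, 8 of 31 (25.8%) fell on AFFX and 9 of 29 (31%) fell on ABI, and none was called higher on either platform. Among all genes, 14.2% were called lower on AFFX and 14.8% on ABI, while 2.49% were called higher on AFFX and 6.31% on ABI. By level, the share of members called lower on AFFX was 10% of MAP kinases, 20% of MAP2K, 46.2% of MAP3K and 0% of MAP4K, and on ABI 11.1%, 40%, 41.7% and 33.3%. On both platforms it was 25% of MAP2K (1 of 4) and 25% of MAP3K (3 of 12). The levels hold few genes and their difference was not tested. The median log2(Fold Change) of the members was 0.11 on AFFX, against 0.16 for all genes, and -0.08 on ABI, against 0.09 for all genes. Neither sign was stable. The AFFX median was -0.22 with arrays centred on their medians and -0.37 with arrays centred on ribosomal protein genes, where other probe sets could also become representatives. It was -0.08 without treated array 2, -0.04 without treated array 3 and -0.11 without control array 3. The ABI median was 0.06 without treated array 1 and -0.31 without control array 3. The count of 0 higher held with limma as run here and with the methods' t-test, but quantile normalization gave 2 higher on AFFX, 2 on ABI and 1 on both, and dropping the fold limit gave 10 on AFFX. At an unadjusted p under 0.05, with no limit on the fold, 11 members were higher on AFFX and 4 on ABI, and with the 1.5-fold limit 0 and 1. The shares of all genes under these alternatives were not counted, and the median change of all genes was itself positive on both platforms. These counts therefore show no trait of the members. The ABI count of 9 lower fell to between 3 and 5 whichever of the 6 ABI arrays was left out, being 3 without control array 1 or control array 2, 4 without treated array 1 or treated array 3, and 5 without treated array 2 or control array 3. MAP2K4, MAP3K4 and MAP3K14 remained called on ABI in all of these, MAP3K5 in 4 of 6, MAP3K3 and MAP3K8 in 1 each, and MAPK6, MAP2K3 and MAP4K5 in none. In such bulk RNA, fewer cells that express a gene and less RNA per cell cannot be told apart.

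**Figure D1:**
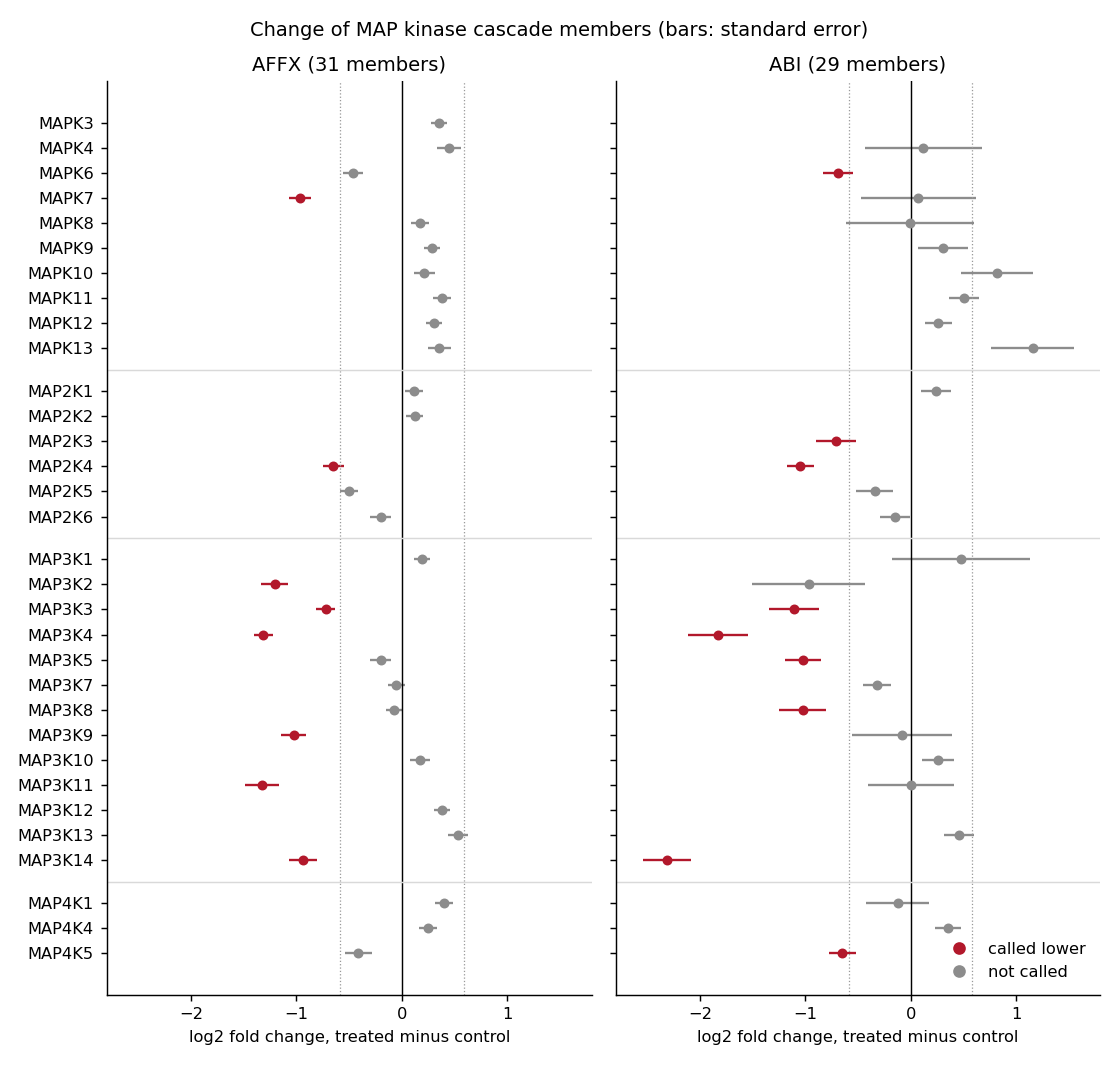
Change of each measured member, by cascade level from MAP kinases (top) to MAP4K (bottom), on AFFX (left) and ABI (right). Points are treated minus control log2 changes by the representative probe, bars are limma standard errors, dotted lines mark 1.5-fold, and red marks the 8 members on AFFX and the 9 on ABI that were called lower.

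MAP2K4, MAP3K3, MAP3K4 and MAP3K14 fell on both platforms, 4 of the 28 members measured on both (14.3%), against 10.5% of all shared genes. No member was called higher on both, against 0.42% of shared genes, and none was called in opposite directions, against 0.352%. The promoters of these 4 kinases are shown because their mRNAs moved the same way on both arrays. Each stretch holds the 250 bases before the RefSeq transcription start on GRCh38.p14, 5′ to 3′ on the gene's strand. The stretch of MAP2K4 is chr17:12020627-12020876 (plus strand), that of MAP3K3 chr17:63622167-63622416 (plus strand), that of MAP3K4 chr6:160991519-160991768 (plus strand) and that of MAP3K14 chr17:45317021-45317270 (minus strand). Capitals mark 2 short promoter motifs wherever they stand, on either strand. The first is GGGCGG, the core of the binding letters of SP1-type factors. The second is CCAAT, the letters that the factor NF-Y binds.
MAP2K4: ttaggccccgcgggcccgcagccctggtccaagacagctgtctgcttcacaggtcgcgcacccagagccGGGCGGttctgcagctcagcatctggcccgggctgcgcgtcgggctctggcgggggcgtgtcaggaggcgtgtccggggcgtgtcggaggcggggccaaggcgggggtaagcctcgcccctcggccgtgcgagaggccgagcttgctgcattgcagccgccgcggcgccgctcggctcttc
MAP3K3: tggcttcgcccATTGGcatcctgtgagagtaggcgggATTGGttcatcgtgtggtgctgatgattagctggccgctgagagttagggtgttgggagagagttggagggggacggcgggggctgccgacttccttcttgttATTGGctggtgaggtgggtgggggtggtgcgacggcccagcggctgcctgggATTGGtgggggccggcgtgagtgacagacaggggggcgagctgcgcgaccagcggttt
MAP3K4: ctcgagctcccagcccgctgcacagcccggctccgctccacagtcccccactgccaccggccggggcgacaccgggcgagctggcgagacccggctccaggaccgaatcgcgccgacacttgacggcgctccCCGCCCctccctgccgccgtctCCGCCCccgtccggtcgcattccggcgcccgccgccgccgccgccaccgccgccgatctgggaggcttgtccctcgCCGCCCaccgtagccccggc
MAP3K14: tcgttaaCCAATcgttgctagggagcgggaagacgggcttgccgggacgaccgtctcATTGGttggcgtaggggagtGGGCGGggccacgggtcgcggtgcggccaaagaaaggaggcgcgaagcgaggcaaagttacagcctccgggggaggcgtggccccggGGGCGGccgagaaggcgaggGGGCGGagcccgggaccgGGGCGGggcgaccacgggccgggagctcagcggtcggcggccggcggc

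The 4 stretches differ in these letters. Calling the first motif the GC box, the MAP2K4 stretch holds 1 GC box and 0 CCAAT boxes, the MAP3K3 stretch 0 and 4, the MAP3K4 stretch 3 and 0, and the MAP3K14 stretch 4 and 2. No GC box overlaps a CCAAT box in them, and none holds TATAAA. GC content was 74.0% for MAP2K4, 64.0% for MAP3K3, 78.4% for MAP3K4 and 73.6% for MAP3K14. Of the 50 RefSeq windows of 35 members, 66.0% hold a GC box, 24.0% a CCAAT box and 4.0% TATAAA, against 42.64%, 32.01% and 10.72% of all 35116 windows. A match of letters is a description and marks no bound site.

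MAP3K4 (MEKK4), which GADD45 proteins activate and which feeds the JNK and p38 branches, had AFFX log2 signals of 6.18, 6.28 and 6.07 in treated and 7.58, 7.48 and 7.41 in control arrays. On ABI its linear signals were 3.02, 1.46 and 1.87 in treated and 7.78, 6.74 and 7.01 in control arrays. On both platforms every treated array lay below every control array. It fell by 1.32 ± 0.09 on the log2 scale on AFFX (SE, adjusted p = 9.37e-07, limma) and by 1.83 ± 0.28 on ABI (adjusted p = 0.0114, limma). The other AFFX probe set of the gene fell by 1.25. MAP3K4 was the only member past 2-fold on both platforms. A lack of overlap between groups was common, seen in the representatives of 28 of 31 members on AFFX and 17 of 29 on ABI, called or not. Its share over all genes was not counted. Representatives were chosen by smallest p, so here and below a lack of overlap describes the arrays and adds no support to a call.

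MAP3K14 (NIK), the kinase of the non-canonical NF-κB pathway, had AFFX log2 signals of 5.40, 4.87 and 5.37 in treated and 6.03, 6.27 and 6.17 in control arrays. Its ABI linear signals were 0.39, 0.38 and 0.48 in treated and 2.61, 1.58 and 2.10 in control arrays. Again the groups did not overlap. Its log2(Fold Change) was -0.94 ± 0.13 on AFFX (SE, adjusted p = 0.00033, limma) and -2.31 ± 0.22 on ABI (adjusted p = 0.00253, limma). The treated ABI mean in log2, -1.27, lies below the leukocyte median there, so that the size of the ABI fall rests on signals near background. The change differed between the platforms by 1.37 ± 0.38 in log2 (AFFX minus ABI, interaction in limma, adjusted p = 0.0391).

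MAP2K4 (MKK4), which phosphorylates JNK and p38 kinases, had AFFX log2 signals of 7.67, 7.83 and 7.55 in treated and 8.47, 8.24 and 8.29 in control arrays. On ABI the linear signals were 2.81, 2.80 and 2.39 in treated and 5.68, 5.45 and 5.35 in control arrays. Treated and control arrays did not overlap on either platform. MAP2K4 fell by 0.65 ± 0.10 on AFFX (adjusted p = 0.000568, limma) and by 1.05 ± 0.13 on ABI (adjusted p = 0.00535, limma), in log2. Its probes differed in size: the other AFFX probe set had a log2(Fold Change) of -0.46, and the other ABI probes of -0.40 and -0.19, none of them called. The AFFX call was lost without treated array 3 (-0.58) or control array 1 (-0.58), where the change missed 1.5-fold. It was also lost without control array 3, where the other AFFX probe set became the representative (-0.55).

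MAP3K3 (MEKK3), which feeds the ERK5 branch through MAP2K5, had AFFX log2 signals of 6.77, 6.85 and 6.76 in treated and 7.60, 7.39 and 7.56 in control arrays. Its ABI linear signals were 1.46, 2.03 and 1.28 in treated and 4.10, 2.81 and 3.28 in control arrays. No treated array reached a control array. MAP3K3 fell by 0.72 ± 0.09 on AFFX (adjusted p = 9e-05, limma) and by 1.11 ± 0.24 on ABI (adjusted p = 0.029, limma), in log2. Of its other probe sets on AFFX, log2(Fold Change) was -0.30 and 0.05, and its other ABI probe had -1.55 (adjusted p = 0.074, limma), none of them called. The ABI call was lost when any ABI array other than treated array 2 was left out, with changes from -1.23 to -0.96.

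**Figure D2:**
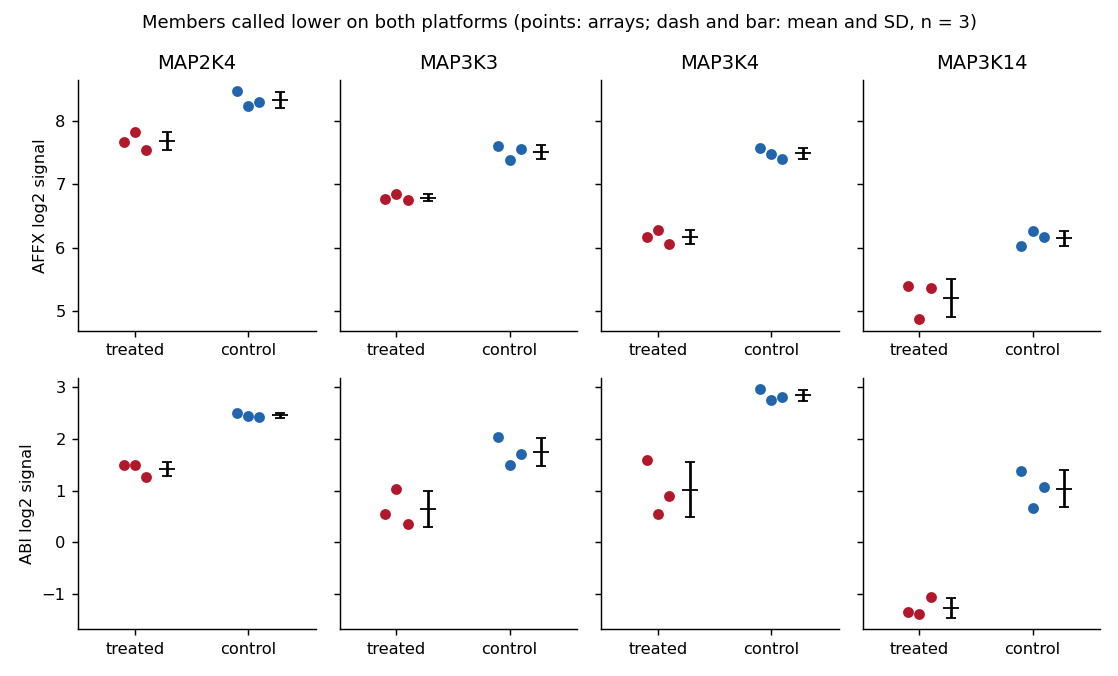
Log2 signals of the 4 members called lower on both platforms, with treated arrays (red) left of control arrays (blue), AFFX above and ABI below. Points are the 3 arrays, dashes with bars the mean and SD, and the widest gap is that of MAP3K14 on ABI, at a log2(Fold Change) of -2.31.

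Among the MAP kinases themselves, the last step of the relay, 1 of 10 fell on AFFX and 1 of 9 on ABI, and 0 of 9 on both. Their median log2(Fold Change) was 0.30 on AFFX and 0.26 on ABI, above the medians of all genes. MAPK7 (ERK5) was the one called on AFFX, with 6.83 ± 0.14 in treated and 7.79 ± 0.14 in control arrays (log2 signal, mean ± SD, n = 3) and a log2(Fold Change) of -0.97 ± 0.10 (adjusted p = 3.72e-05, limma). Its other AFFX probe set fell by 0.91. On ABI the MAPK7 log2 signal averaged -0.16 ± 0.92 in treated and -0.23 ± 0.61 in control arrays, and the groups overlapped. The change was 0.07 ± 0.55 there, and its difference from AFFX was not called (adjusted p = 0.196, interaction in limma). MAPK6 (ERK3, an atypical MAP kinase) was called on ABI, with a log2(Fold Change) of -0.69 ± 0.14 (adjusted p = 0.0248, limma). On AFFX MAPK6 had -0.46 ± 0.09 (adjusted p = 0.00339, limma), which misses 1.5-fold.

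The other MAP kinases were not called. The kinases ERK1 (MAPK3), measured on AFFX only, and ERK4 (MAPK4, atypical) had log2(Fold Change) of 0.35 and 0.45 on AFFX, and MAPK4 had 0.12 on ABI. For the JNK genes MAPK8, MAPK9 and MAPK10 it was 0.17, 0.29 and 0.21 on AFFX, and 0.00, 0.30 and 0.82 on ABI. The other AFFX probe sets of MAPK8 had changes between -0.27 and 0.04. For the p38 genes MAPK11, MAPK12 and MAPK13 it was 0.38, 0.31 and 0.35 on AFFX, and 0.50, 0.26 and 1.16 on ABI. The means of the representatives lay below the leukocyte median in both conditions for MAPK10 on both platforms, MAPK4 on ABI and MAPK13 on AFFX. The ABI change of MAPK13, the p38 delta kinase, was the largest positive one among the members. Its linear signals there were 1.57, 2.66 and 2.35 in treated and 1.32, 0.56 and 1.2 in control arrays. These groups did not overlap, but the adjusted p was 0.0973 (limma).

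At the MAP2K level 1 of 5 fell on AFFX and 2 of 5 on ABI, with medians of -0.20 and -0.34. Beside MAP2K4, the ABI call was MAP2K3, which phosphorylates p38 kinases. MAP2K3 had linear signals of 0.93, 1.03 and 1.14 in treated and 1.82, 1.94 and 1.35 in control arrays, with no overlap. Its log2(Fold Change) was -0.71 ± 0.19, with an adjusted p of 0.0498 (limma) that lies at the threshold. This was 1 of 4 ABI probes for the gene. The other ABI probes had changes of -0.53, 0.25 and 0.18, with overlapping groups, and none was called. On AFFX the 3 probe sets of MAP2K3 are also assigned to another gene, and their changes of -0.11, -0.37 and 0.18 were not called. The ERK kinase kinases MAP2K1 (MEK1) and MAP2K2 (MEK2) had 0.11 and 0.12 on AFFX, and MAP2K1 had 0.24 on ABI. MAP2K5, which phosphorylates ERK5, had -0.50 on AFFX and -0.34 on ABI. MAP2K6, a p38 kinase kinase, had -0.20 and -0.15. None of these changes was called.

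Of the MAP3K, 6 of 13 (46.2%) fell on AFFX and 5 of 12 (41.7%) on ABI, and 3 of 12 on both. Their medians were -0.20 on AFFX and -0.65 on ABI, below those of all genes. Apart from MAP3K3, MAP3K4 and MAP3K14, the 2 platforms called different MAP3K genes.

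**Figure D3:**
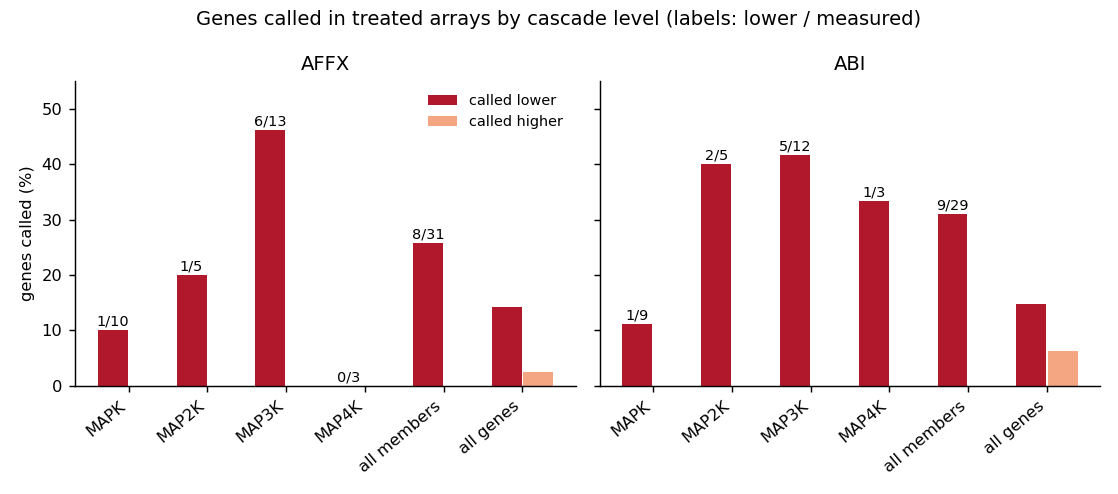
Percent of measured genes called lower (dark) or higher (light) in treated arrays, by cascade level, for all members and for all genes, on AFFX (left) and ABI (right). MAP3K genes were called lower in 6 of 13 cases on AFFX and 5 of 12 on ABI, and no member was called higher.

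MAP3K2 (MEKK2), the close relative of MAP3K3, fell on AFFX. Its representative probe set had log2 signals of 5.88, 6.02 and 5.81 in treated and 7.38, 7.13 and 6.82 in control arrays, without overlap, and a log2(Fold Change) of -1.21 ± 0.13 (adjusted p = 3.55e-05, limma). This was 1 of 7 AFFX probe sets for the gene. The other probe sets had changes between -0.17 and 0.30, none called, and the brightest had 0.03. Without treated array 1 or 2 another probe set became the representative, and the change was 0.27 or 0.34. On ABI MAP3K2 had -0.97 ± 0.54, with overlapping groups, and was not called (adjusted p = 0.266, limma).

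MAP3K9 (MLK1) and MAP3K11 (MLK3), mixed-lineage kinases that feed the JNK branch, also fell on AFFX alone. MAP3K11 had log2 signals of 6.45, 5.88 and 6.28 in treated and 7.36, 7.83 and 7.40 in control arrays, and a log2(Fold Change) of -1.33 ± 0.16 (adjusted p = 7.74e-05, limma). Its treated arrays all lay below its control arrays. The other AFFX probe set of MAP3K11 had 0.10, and on ABI its change was 0.00 ± 0.41. MAP3K9 had AFFX log2 signals of 3.75, 3.88 and 4.07 in treated and 5.08, 4.99 and 4.70 in control arrays, and a log2(Fold Change) of -1.03 ± 0.12 (adjusted p = 6.28e-05, limma). All its treated signals lay below the leukocyte median of 4.68 and all its control signals above it. The other AFFX probe set of MAP3K9 had 0.04, and on ABI its change was -0.08 ± 0.48. The differences between platforms were not called for MAP3K11 (adjusted p = 0.125) or MAP3K9 (adjusted p = 0.222, interaction in limma for both). MAP3K10 (MLK2), a further mixed-lineage kinase, had 0.17 on AFFX and 0.26 on ABI and was not called.

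MAP3K5 (ASK1), an oxidative stress sensor, and MAP3K8 (TPL2), which activates MAP2K1 in inflammatory signalling, fell on ABI alone. MAP3K5 had ABI linear signals of 0.30, 0.37 and 0.39 in treated and 0.78, 0.76 and 0.61 in control arrays, with no overlap, and a log2(Fold Change) of -1.02 ± 0.17 (adjusted p = 0.0148, limma). MAP3K8 had 0.33, 0.36 and 0.29 in treated and 0.61, 0.88 and 0.54 in control arrays, with no overlap, and -1.02 ± 0.22 (adjusted p = 0.0292, limma). Neither gene was called on ABI with 0.5 added to the signals, and MAP3K8 was also not called with the methods' t-test. For both genes the treated ABI mean lay below the leukocyte median and the control mean above it. On AFFX the representative probe sets lay below that median in both conditions. There MAP3K8 had log2 signals of 3.15, 3.16 and 3.12 in treated and 3.25, 3.26 and 3.14 in control arrays, which overlap, and MAP3K5 had 3.24, 2.92 and 3.17 in treated and 3.37, 3.32 and 3.25 in control arrays. The AFFX changes were -0.08 for MAP3K8 and -0.20 for MAP3K5. Of the 28 members on both platforms, MAP3K8 and MAP3K14 changed by different amounts (2 of 28, against 11.6% of shared genes), by 0.95 ± 0.21 for MAP3K8 (adjusted p = 0.014, interaction in limma). For MAP3K5 the difference was 0.82 ± 0.24 (adjusted p = 0.0527).

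The remaining MAP3K were not called. MAP3K7 (TAK1), which acts downstream of TGF-β and interleukin-1 receptors, had -0.05 on AFFX and -0.32 on ABI. MAP3K13 (LZK), a JNK-branch kinase, came nearest to a rise. Its AFFX log2 signals were 8.18, 8.38 and 8.11 in treated and 7.74, 7.64 and 7.70 in control arrays, with no overlap. The log2(Fold Change) of 0.53 ± 0.09 (adjusted p = 0.00117, limma) misses 1.5-fold, and on ABI it was 0.46 ± 0.14 (adjusted p = 0.0766, limma). MAP3K12 (DLK), its relative known from axon injury, had 1 AFFX probe set with 0.38 and others with -0.40 and -0.26. All 3 had an adjusted p under 0.05 (0.0033, 0.00287 and 0.0277, limma) and missed 1.5-fold. MAP3K1 (MEKK1) had 0.19 on AFFX and 0.47 on ABI by its representative probes, and the AFFX one lay below the leukocyte median. The ABI groups overlapped, and the control mean there, -1.42 in log2, also lay below the leukocyte median of that platform. Its other AFFX probe set had log2 signals of 4.67, 4.45 and 4.43 in treated and 5.79, 5.67 and 5.43 in control arrays, without overlap, and fell by 1.11 ± 0.11 (adjusted p = 1.85e-05, limma). Its treated signals all lay below the leukocyte median and its control signals above it.

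Of the MAP4K, germinal centre kinase relatives that relay signals to MAP3K, 0 of 3 fell on AFFX and 1 of 3 on ABI. MAP4K5 had ABI linear signals of 6.56, 6.44 and 7.13 in treated and 11.4, 9.79 and 10.4 in control arrays, with no overlap. It fell by 0.65 ± 0.13 on the log2 scale (adjusted p = 0.0223, limma). On AFFX its representative had -0.42 ± 0.13 (adjusted p = 0.0249, limma), which misses 1.5-fold. MAP4K1 (HPK1), known from lymphocytes, had 0.40 on AFFX and -0.12 on ABI, and MAP4K4 had 0.25 and 0.36, none of them called.

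Counted by probe, 12 of 90 AFFX probe sets of the members (13.3%) and 9 of 39 ABI probes (23.1%) were called lower, against 10.4% and 13.1% of all single-gene probes. None was called higher, against 1.71% on AFFX and 5.62% on ABI. Of the 31 members on AFFX, 27 had several probe sets, and with any probe set counted 10 members fell, the additional ones being MAP3K1 and MAP2K5. A MAP2K5 probe set fell by 0.61 and the brightest of the gene had 0.15. No member had probes called in opposite directions, against 0.855% of genes with several probe sets on AFFX and 0.784% of those with several probes on ABI. The probe sets of MAPK7 and of MAP3K4 were all called, while those of MAP3K1, MAP3K2, MAP3K9 and MAP3K11 diverged by over 1 log2 unit. The position of the probes in the transcripts was not analysed.

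**Figure D4:**
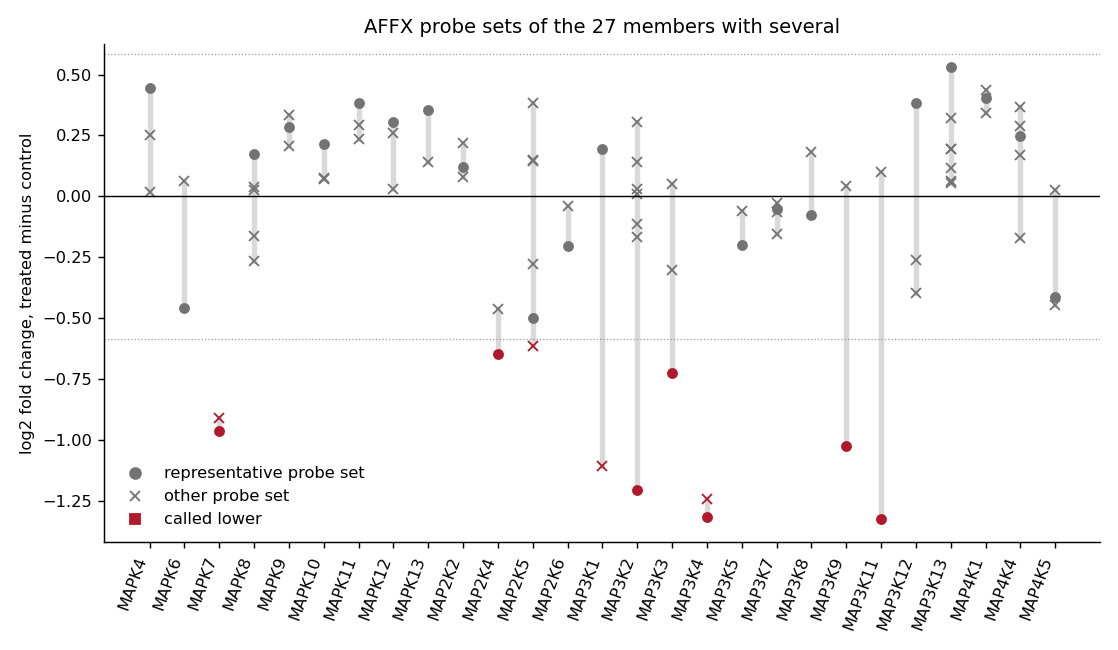
Log2(Fold Change), treated minus control, of each AFFX probe set for the 27 members with several. Circles are the representatives, crosses the other probe sets, red marks those called lower, grey bars span each gene and dotted lines mark 1.5-fold. Both probe sets of MAPK7 and MAP3K4 lie together, whereas 1 of 7 for MAP3K2 stands apart.

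Other genes of the pathway were counted by list, and those named as called on 1 platform only were picked after their values were seen. Of RAS proteins and receptor adaptors, 2 of 9 fell on AFFX and 0 of 8 on ABI. Of RAF and KSR kinases, which start the ERK relay, 1 of 4 fell on AFFX (KSR1, -1.11) and 1 of 4 rose on ABI (KSR2, 1.26). Of other kinases of the MAP3K, MAP4K and MAP kinase families, 3 of 19 fell on AFFX, and on ABI 3 of 16 fell and 1 rose (MAPK15, 0.84). NLK, an atypical MAP kinase of the Wnt pathway, fell by 1.33 on AFFX and by 2.14 on ABI. Its treated AFFX signals all lay below the leukocyte median. TAOK2, a stress kinase upstream of p38, fell by 1.36 and by 0.79.

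Of scaffolds and adaptor subunits, 5 of 20 fell on AFFX, and on ABI 4 of 19 fell and 1 rose (MAPK8IP2, a JNK scaffold, 0.82). The 4 called lower on both platforms were TRAF6, AXIN1, GADD45A and TAB2. TRAF6, the ubiquitin ligase upstream of MAP3K7, fell by 0.95 on AFFX and by 3.56 on ABI, where its treated mean lay below the leukocyte median, so that the size of the fall rests on signals near background. AXIN1, a scaffold of Wnt signalling that also binds MAP3K1 and MAP3K4, fell by 1.12 and by 2.66. GADD45A, an activator of MAP3K4, fell by 0.80 and by 1.46, and TAB2, which links MAP3K7 to ubiquitin chains, fell by 0.80 and by 0.84. Of the kinases that MAP kinases activate, 1 of 11 fell on AFFX and 2 of 11 on ABI, and MAPKAPK5 (PRAK) fell on both, by 0.92 and by 1.00.

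Of transcription factors known as targets of MAP kinases, 9 of 20 fell on AFFX and 7 of 20 on ABI, with 1 called higher on each (ATF7 on AFFX and FOSL1 on ABI). FOSL1 had 1.07 on ABI but -0.35 on AFFX (adjusted p = 0.0289, limma), which misses 1.5-fold. MYC, DDIT3, JUND, CREB1 and MAX fell on both platforms. MYC fell by 2.3 on AFFX and by 2.80 on ABI, JUND, an AP-1 subunit, by 1.46 and by 2.00, DDIT3 (CHOP), a stress factor, by 1.09 and by 2.93, and CREB1 by 0.98 and by 1.62. MYC is a growth regulator, MAX its partner and CREB1 a factor of cAMP responses. ATF7, chosen for mention after its values were seen, was called higher on AFFX (0.70) and lower on ABI (-1.23), where its treated mean lay below the leukocyte median. The medians of this list, -0.48 on AFFX and -0.66 on ABI, lie below those of all genes.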

How the data were processed

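RNA pools of treated and control A2780 cells were hybridised on 3 AFFX and 3 ABI arrays per condition, and arrays were grouped by condition as the labels give it. On AFFX the authors deposited log2 values, computed by RMA with quantile normalization. The deposited ABI values are linear intensities of a chemiluminescent signal, scaled by a global median. No detection flags were used here. They were turned to log2 here. Gene names came from the platform annotation, and promoters from RefSeq (GRCh38.p14). For genes with several probes, the representative was chosen by smallest t-test p (equal variances), as in the methods. This choice favours larger changes. Each platform was fitted apart with limma 3.58.1 (R 4.3.3), unpaired, and the difference between platforms as an interaction with 1 variance weight per platform. The steps were tested on simulated data. Alternatives covered scaling, probes, thresholds, the replicate number as a block and each array left out. The members and lists were chosen with earlier results of these data known. Values in every array are given for members called alike on both platforms, or on 1 with a log2 change of at least 1, and for some others.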

Additional observations from a re-analysis of the deposited data

Results flagged for a closer look

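The change of 2 members differed between AFFX and ABI in the test of the difference itself (interaction in limma, adjusted over all shared genes). For MAP3K8 the AFFX change exceeded the ABI change by 0.95 in log2 (-0.08 on AFFX, -1.02 on ABI). The AFFX signals of its representative lay below the median of the leukocyte probes in both conditions. The other AFFX probe set, whose means of 4.87 in treated and 4.69 in control arrays lay just above that median of 4.68, had a change of 0.18. For MAP3K14 the AFFX change exceeded the ABI change by 1.37 (-0.94 on AFFX, -2.31 on ABI), with the fall called on both platforms. Without array weights these 2 differences were called again, and so was that of MAP3K5, 3 in all.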

How the results depend on the processing

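MAP3K4 was called lower on both platforms under every alternative, and MAP3K14 under every alternative except the 2-fold limit, which its AFFX change misses. The other counts moved. On AFFX the 8 members called lower became 4 with a 2-fold limit. The 0 called higher became 2 when arrays were quantile normalized again (MAP3K12 and MAP3K13), 10 with no fold limit, and 0 to 1 when 1 array was left out, the 1 being MAP3K13 without treated array 3. On ABI the 9 called lower became 3 to 5 when 1 array was left out, and 3 without control array 1 or control array 2 (MAP2K4, MAP3K4 and MAP3K14). With 0.5 added to the signals 6 remained, and MAP2K3, MAP3K5 and MAP3K8 were lost. With the methods' t-test 6 remained, and MAP2K3, MAP3K3 and MAP3K8 were lost. Quantile normalization also left 6, without MAPK6, MAP2K3 and MAP4K5. The 0 called higher there became 2 after quantile normalization (MAPK11 and MAP3K13), 1 with 0.5 added to the signals (MAPK13), and 0 to 1 with 1 array left out (MAP3K13 without control array 3). The 4 lower on both became 2 after quantile normalization, 7 with arrays centred on ribosomal protein genes and 1 with the 2-fold limit, and lay between 3 and 4 with 1 array left out. The 0 higher on both became 1 after quantile normalization (MAP3K13). Centring on ribosomal protein genes shifted the median change of all probes to -0.18 on AFFX and -0.48 on ABI. The causes were not tested.

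Array numbers are shared between groups, and the labels do not say whether they pair the arrays. The paper describes its test as blocked and unpaired and does not name the block. The values that follow do not decide the question, because none was computed for arrays known to be unpaired. Deviations of same-numbered arrays correlated at 0.07, 0.00 and 0.33 on AFFX and at 0.03, -0.01 and 0.07 on ABI, and 3 of 6 AFFX and 4 of 6 ABI arrays correlated best with their own number. With the replicate number as a block, 8 members were called lower on AFFX, 3 on ABI (MAP2K4, MAP3K4 and MAP3K14) and 3 on both, and none higher.

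Some single changes turned sign. With the brightest probe set as representative, the AFFX changes were 0.028 for MAP3K2, 0.18 for MAP3K8, 0.043 for MAP3K9 and 0.027 for MAP4K5, and 0.18 for MAP3K8 also with dim probes left out. With arrays centred on ribosomal protein genes, the ABI changes were -0.57 for MAPK7 and -0.64 for MAP3K11, and -0.023 for MAP3K11 with 0.5 added. With 1 array left out, changes ranged from -0.42 to 0.49 for MAPK7 on ABI, from -1.35 to 0.34 for MAP3K2 on AFFX, from -0.11 to 0.22 for MAP3K8 on AFFX, from -0.42 to 0.32 for MAP3K9 on ABI and from -0.22 to 0.44 for MAP3K11 on ABI. The positive values of MAP3K2 and MAP3K8 are those of another probe set, which became the representative. These alternatives were tallied for the members called on at least 1 platform. Of the values, 303 kept their direction and side of the threshold, and 20 turned sign. With the direction kept, 59 lost the call and 4 gained one. A call lost together with a turn of sign is counted only as a turn of sign.

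Signals near background limit MAPK4, MAPK10, MAP3K1, MAP3K5, MAP3K8, MAP3K9 and MAP3K14 on ABI. On AFFX they limit MAPK10, MAPK13, MAP3K1, MAP3K5, MAP3K8 and MAP3K9. All arrays of a condition share 1 RNA pool.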
